A study of Canis lupus familiaris with 10 samples.

Results

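The genes described are 10 enzymes that handle sugars outside the main line of glycolysis, measured with and without inhibition of PRMT5 in CLBL-1 and 17-71, a pair of lines grown from canine lymphoma. PRMT5 is the enzyme that sets symmetric dimethyl marks on arginine. The 10 enzymes are RBKS, IDNK, SORD, AKR1B1, KHK, TKFC, GALK1, GALK2, FUK and XYLB, 10 of 15947 genes with an unambiguous probe set on the array. RBKS, IDNK and SORD were chosen by their treated minus control values on these same arrays, and the other 7 were added for the routes they serve. For RBKS, IDNK and SORD the treated minus control values are therefore a description without a test. Each gene had 1 probe set that carried its symbol alone, and FUK was read from the probe set annotated FCSK, its current symbol.

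The CLBL-1 cells were collected at day 2 (3 control samples and 2 treated samples) and the 17-71 cells at day 4 (2 control samples and 3 treated samples), with 1 array per sample. The treatment was 100 nM of a selective inhibitor of PRMT5, which the labels name PR220 and the study names C220, and the other cells were labelled control and grown in the same serum-containing medium. Both are established lines labelled as B-cell lymphoma from lymph node, and each stands for a single tumour. Line and day of collection cannot be told apart, and the study describes the replicates as biological, while the labels do not say how they were grown.

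Values are RMA log2 expression, a scale on which a step of 1 is a doubling, over 32391 probe sets. Pearson's r between arrays was 0.99 to 0.993 within a group and 0.934 to 0.939 between the lines. The B-cell label matched the markers in CLBL-1 but most of them went against it in 17-71. All 7 measured B-cell markers read above 6 in CLBL-1, where their mean lay between 8.81 and 9.12 on the 5 arrays, whereas only CD22 did so in 17-71, where their mean lay between 4.01 and 4.27. MS4A1, which encodes CD20, averaged 12.03 in control CLBL-1 and 2.19 in control 17-71 cells. The 5 myeloid markers averaged 6.02 to 6.12 on the 17-71 arrays and 4.91 to 5.10 on the CLBL-1 arrays, a difference that rested on CD68, which read 9.65 in control 17-71 and 4.13 in control CLBL-1 cells. LYZ was lower in 17-71 (10.79 against 11.13), and CD14, CSF1R and ITGAM averaged between 2.99 and 3.45 in all 4 groups. Of the 6 T-cell markers, CD3D (6.83 in control CLBL-1 and 2.75 in control 17-71 cells) and CD3G (8.96 and 4.61) were higher in CLBL-1, CD2 (4.89 and 8.18) was higher in 17-71, and CD3E read at most 2.28 on any array. The lists of stromal and endothelial, epithelial and erythroid markers had 0 members above 6 in any group. The part of these lineage differences in the differences between the lines given below was not tested. PRMT5 averaged 8.73 in control and 8.46 in treated CLBL-1 cells, and 7.79 and 7.76 in 17-71.

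Most hexose enters metabolism through hexokinase, but free ribose, gluconate, galactose, fucose and xylulose need kinases of their own, and fructose has one, ketohexokinase, besides hexokinase. In the polyol route aldose reductase turns glucose into sorbitol and sorbitol dehydrogenase turns sorbitol into fructose, which ketohexokinase and triokinase then pass on to the triose phosphates of glycolysis. Ribokinase and gluconokinase deliver their products to the pentose phosphate pathway, and L-fucose kinase salvages fucose for the glycans of surface proteins.

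RBKS encodes ribokinase, which phosphorylates free ribose. It read 5.67, 5.90 and 5.79 on the control arrays of CLBL-1 and 6.70 and 6.69 on the treated arrays. The 17-71 values were 6.19 and 6.04 in control and 6.94, 6.87 and 6.91 in treated cells. RBKS was the only one of the 10 genes that was higher in treated cells of both lines without overlap of the groups. The log2 difference was 0.91 (SE 0.10; 2 treated and 3 control arrays) in CLBL-1 and 0.79 (SE 0.09; 3 treated and 2 control arrays) in 17-71, or 1.88-fold and 1.73-fold.

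IDNK encodes gluconokinase, which makes phosphogluconate and so feeds the oxidative arm of the pentose phosphate pathway from outside. It read 5.83, 5.99 and 5.96 in control CLBL-1 cells and 4.55 and 4.58 in treated CLBL-1 cells. In 17-71 it read 1.61 and 1.77 in control and 1.61, 1.67 and 2.03 in treated cells. Treated arrays lay below control arrays in CLBL-1, and the 17-71 arrays were low with and without the inhibitor. Its log2 difference was -1.36 (SE 0.09) in CLBL-1, a 2.57-fold lower value, and 0.08 (SE 0.16) in 17-71, where the groups overlapped. Between 10.1% and 20.3% of all probe sets read lower than IDNK on the 17-71 arrays, against 71.7% to 73.2% on the control arrays of CLBL-1 and 59.8% and 60.1% on the treated ones. No call of presence or absence was made from these positions.

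SORD encodes sorbitol dehydrogenase, and the study lists it among MYC target genes that decreased on its arrays. It read 6.54, 6.48 and 6.67 in control and 5.80 and 5.92 in treated CLBL-1 cells. The 17-71 arrays gave 7.10 and 6.92 in control and 6.41, 6.67 and 6.42 in treated cells. Treated arrays lay below control arrays in both lines. The log2 difference was -0.70 (SE 0.10) in CLBL-1 and -0.51 (SE 0.13) in 17-71, or 1.63-fold and 1.42-fold lower. MYC itself averaged 7.85 in control and 7.98 in treated CLBL-1 cells and 8.36 and 8.30 in 17-71. Neither difference passed in limma (adjusted p = 0.562 in CLBL-1 and 0.896 in 17-71). By quantitative PCR the study reports less MYC transcript in treated CLBL-1 cells at the same dose and day. It also reports a fall of MYC protein over time in both lines. The CLBL-1 arrays did not show the lower transcript, and the reason was not tested.

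**Figure D1:**
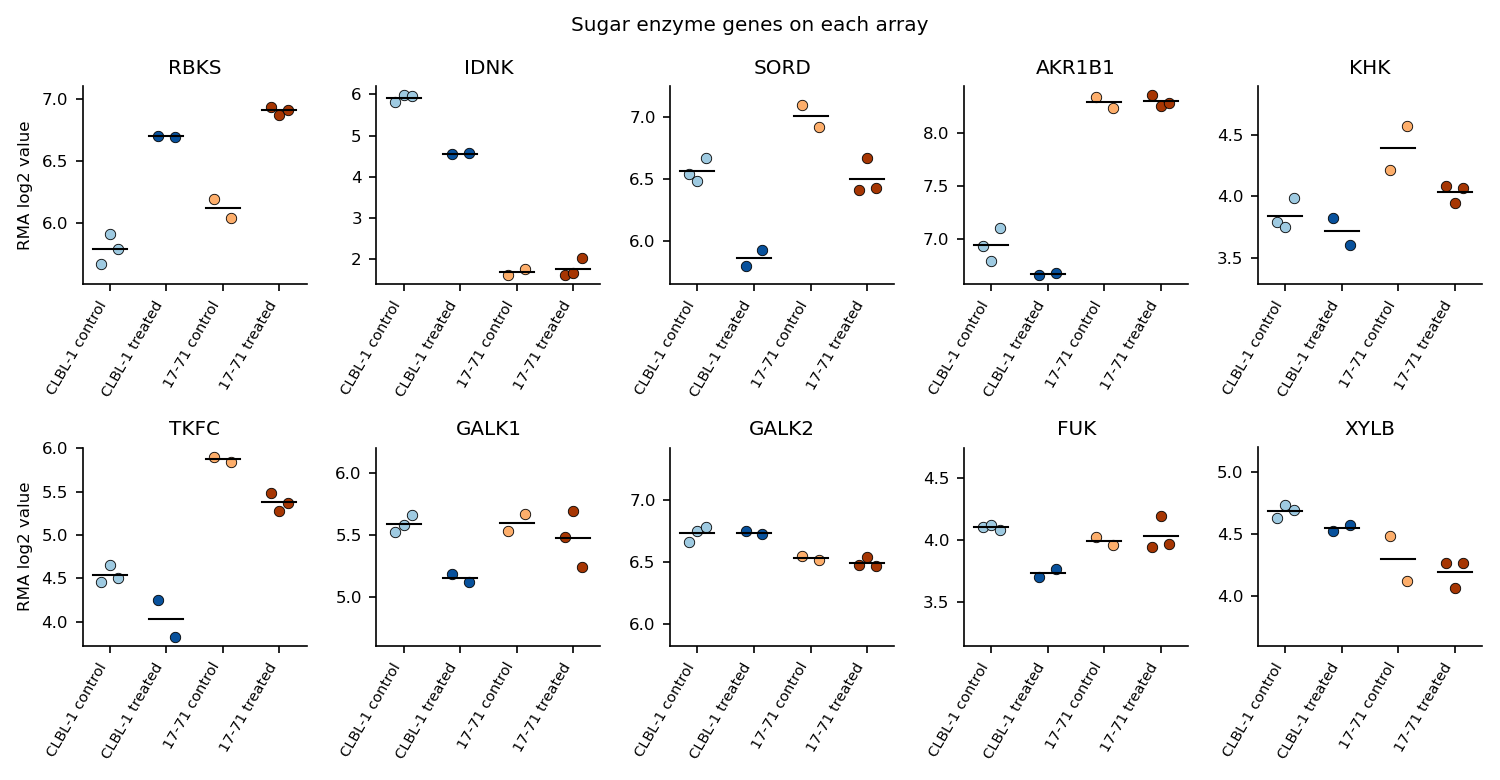
RMA log2 value (vertical axis, a separate range for each gene) of the 10 genes on every array, by line and treatment. Points are arrays and bars are group means. Treated points lie above control points in both lines for RBKS and below them in both lines for SORD and TKFC, while IDNK lies between 1.61 and 2.03 on all 17-71 arrays.

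TKFC, the triokinase that phosphorylates glyceraldehyde released from fructose, was the only gene among the 7 added by route that passed the test for the mean effect of both lines (log2 change -0.50, SE 0.09, limma adjusted p = 0.0424, 5 treated and 5 control arrays). It read 4.46, 4.66 and 4.51 in control and 4.25 and 3.83 in treated CLBL-1 cells. Its 17-71 values were 5.90 and 5.84 in control and 5.48, 5.28 and 5.37 in treated cells. All treated arrays lay below all control arrays of their line, and the change was nearly the same in both lines at -0.50 (SE 0.15) and -0.50 (SE 0.10). Neither line alone passed (adjusted p = 0.259 in CLBL-1 and 0.467 in 17-71). The call was weak. In fits that each dropped 1 of the 10 arrays it held only without treated CLBL-1 replicate 1 (adjusted p = 0.0367) and was lost in the other 9 fits, with adjusted p up to 0.134 without control 17-71 replicate 1.

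KHK, ketohexokinase, makes the fructose phosphate that an aldolase splits ahead of TKFC. Its values were 3.79, 3.76 and 3.99 in control and 3.83 and 3.61 in treated CLBL-1 cells, which overlap. In 17-71 it read 4.22 and 4.57 in control and 4.09, 3.95 and 4.07 in treated cells, where the groups do not overlap. The mean effect of -0.24 (SE 0.09) did not pass (adjusted p = 0.279). AKR1B1, the aldose reductase that makes the substrate of SORD, read 6.93, 6.79 and 7.11 in control and 6.66 and 6.68 in treated CLBL-1 cells. Its 17-71 values, 8.35 and 8.24 in control and 8.36, 8.26 and 8.28 in treated cells, overlapped. Its log2 differences of -0.28 (SE 0.12, adjusted p = 0.389) and 0.01 (SE 0.09, adjusted p = 0.99) did not pass.

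GALK1, galactokinase, and GALK2, a related kinase that prefers N-acetylgalactosamine, read differently. GALK1 read 5.53, 5.58 and 5.66 in control and 5.18 and 5.12 in treated CLBL-1 cells, a log2 difference of -0.44 (SE 0.09, adjusted p = 0.15). In 17-71 it read 5.53 and 5.67 in control and 5.49, 5.69 and 5.24 in treated cells, and these overlap (-0.13, SE 0.16, adjusted p = 0.845). GALK2 kept to between 6.66 and 6.78 on all CLBL-1 arrays and between 6.46 and 6.55 on all 17-71 arrays. Its mean effect was -0.02, with a 95% interval of -0.14 to 0.10, the narrowest interval among the 10 genes.

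FUK, L-fucose kinase, read 4.11, 4.12 and 4.08 in control and 3.70 and 3.76 in treated CLBL-1 cells, a log2 difference of -0.37 (SE 0.08, adjusted p = 0.168). In 17-71 it read 4.02 and 3.96 in control and 3.95, 4.19 and 3.97 in treated cells (0.05, SE 0.11, adjusted p = 0.934). The CLBL-1 groups were separate and the 17-71 groups overlapped, but the difference between the 2 effects (-0.42, SE 0.13) did not pass (adjusted p = 0.296). XYLB, xylulose kinase, read 4.63, 4.73 and 4.69 in control and 4.52 and 4.57 in treated CLBL-1 cells, and 4.48 and 4.12 in control and 4.26, 4.06 and 4.26 in treated 17-71 cells. Its mean effect of -0.12 (SE 0.08, adjusted p = 0.594) did not pass. Some members read near the middle of the array. Between 49.85% and 55.3% of all probe sets read lower than FUK, and between 48.22% and 59.53% lower than KHK. For TKFC on the treated CLBL-1 arrays it was 56.7% and 51.31%. The files hold no detection call for such values.

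**Figure D2:**
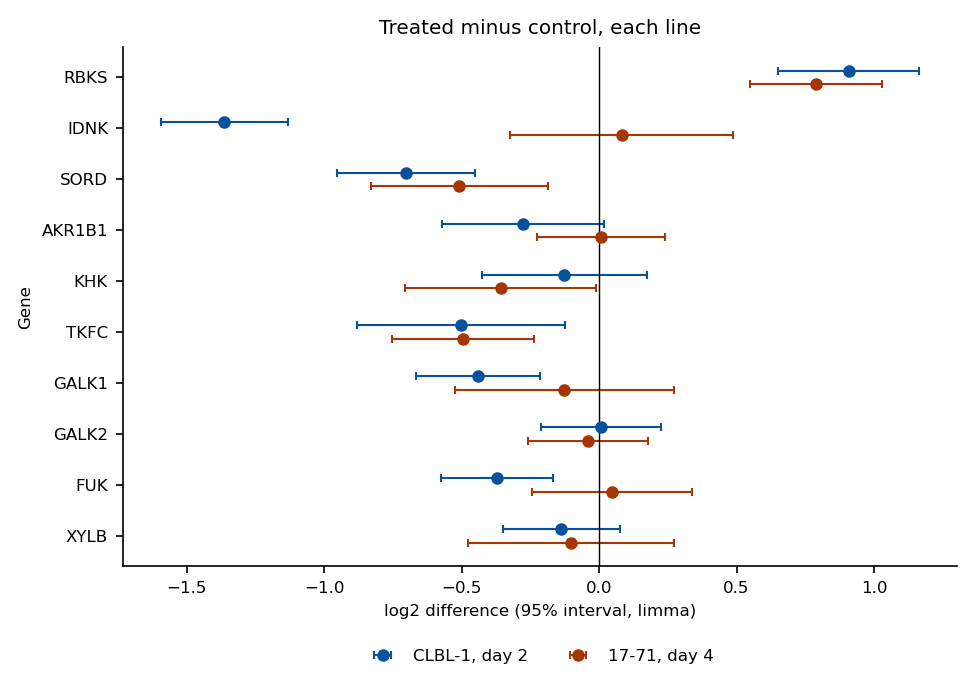
Treated minus control log2 difference (horizontal axis) of each gene in CLBL-1 at day 2 and 17-71 at day 4. Points are limma estimates and bars are 95% intervals, which for RBKS, IDNK and SORD are descriptive because these genes were chosen on this contrast. RBKS lies near 0.91 and 0.79, TKFC near -0.50 in both lines, and IDNK at -1.36 in CLBL-1 against 0.08 in 17-71.

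Counted together, 8 of the 10 genes had a negative difference in CLBL-1 (median -0.32) and 6 of 10 in 17-71 (median -0.07), against medians of 0.01 and 0.00 over all 15947 genes. At an adjusted p below 0.05 in limma, 1 of the 10 passed in CLBL-1 (IDNK) and 0 in 17-71, where 0.133% and 0% of all probe sets were called. Because RBKS, IDNK and SORD were chosen on this contrast, nothing is read from those counts, nor from those for the mean effect and the difference of effects. Where p was left unadjusted and had to lie below 0.05, 3 of the 7 genes added by route were lower in CLBL-1 (TKFC, GALK1 and FUK) and 2 of 7 in 17-71 (TKFC and KHK), and none of the 7 was higher. Over all genes that threshold took 17% in CLBL-1 (8.67% lower) and 8.62% in 17-71 (5.24% lower). For the mean effect 4 of the 10 passed at an adjusted p below 0.05 (RBKS higher, IDNK, SORD and TKFC lower), against 1.59% of probe sets and, with 1 probe set per gene, 2.54% in either direction and 2.04% lower. The mean effect of IDNK, -0.64, averages -1.36 in CLBL-1 and 0.08 in 17-71. For the difference of the effects between the lines 0 of 10 passed at an adjusted p below 0.05 in limma. Of all probe sets 0.0309% were called. Unadjusted, 2 of 10 had p below 0.05 (IDNK and FUK). Over all 15947 genes that unadjusted threshold took 1166 with a positive and 949 with a negative difference.

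The levels in untreated cells address how the 2 lines differ before any inhibitor, a contrast that the choice of genes did not use, although it shares the control arrays. IDNK was higher in CLBL-1 than in 17-71 (log2 difference 4.24, SE 0.13, limma adjusted p = 5.78e-08, 3 against 2 arrays). No fold is given for it, because the 17-71 values lie near the bottom of the array and the files hold no detection call. AKR1B1 was 2.55-fold lower in CLBL-1 (-1.35, SE 0.10, adjusted p = 1.17e-05) and TKFC 2.52-fold lower (-1.33, SE 0.13, adjusted p = 6.3e-05). CLBL-1 thus read higher for gluconokinase and lower for the enzymes at the entry and at the exit of the route from glucose through sorbitol and fructose. These 3 calls held in all 10 fits that left out 1 array.

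Smaller differences passed for KHK (-0.55, SE 0.13, adjusted p = 0.0112), SORD (-0.44, SE 0.11, adjusted p = 0.0156) and RBKS (-0.33, SE 0.09, adjusted p = 0.0247), all lower in CLBL-1, and for XYLB (0.39, SE 0.12, adjusted p = 0.0382), which was higher. Single arrays decided these calls. KHK was lost without control 17-71 replicate 2 (adjusted p = 0.0982), SORD without control 17-71 replicate 1 (0.117) or control CLBL-1 replicate 2 (adjusted p = 0.0512), and RBKS without control 17-71 replicate 1 (adjusted p = 0.163) or without control CLBL-1 replicate 1 (0.0746) or 3 (0.0591). XYLB kept its call only without control 17-71 replicate 1 (adjusted p = 0.00947) and without treated 17-71 replicate 2 (0.0371), and was lost in the other 8 fits, with adjusted p up to 0.28 without control 17-71 replicate 2. GALK2 (0.20, SE 0.07, adjusted p = 0.082), FUK (0.11, SE 0.09, adjusted p = 0.427) and GALK1 (-0.01, SE 0.13, adjusted p = 0.969) did not pass. In all 7 of the 10 genes passed, 5 lower and 2 higher in CLBL-1. Over all probe sets 31.5% passed, and over genes 41.9% did, 20.2% lower and 21.7% higher, so that differences between these lines were common in general.

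Treated cells of the 2 lines kept the order of the large differences. The choice of RBKS, IDNK and SORD did not use the contrast between treated cells, although that contrast shares the treated arrays with it. IDNK was higher in treated CLBL-1 than in treated 17-71 cells (log2 difference 2.79, SE 0.13, adjusted p = 6.59e-07), AKR1B1 3.1-fold lower (-1.63, SE 0.10, adjusted p = 3.54e-06) and TKFC 2.53-fold lower (-1.34, SE 0.13, adjusted p = 5.97e-05). SORD was lower in treated CLBL-1 cells by 0.64 (SE 0.11, adjusted p = 0.00217), and GALK2 was higher by 0.24 (SE 0.07, adjusted p = 0.0366), whereas RBKS (-0.21, SE 0.09, adjusted p = 0.132), KHK, GALK1 and XYLB did not pass there. FUK read 0.11 between control cells, which did not pass (adjusted p = 0.427), and -0.30 (SE 0.09, adjusted p = 0.0355) between treated cells. The change from one to the other is the difference of its effects, which did not pass (adjusted p = 0.296). Ordered by level over the 4 groups, RBKS ran from control CLBL-1 through control 17-71 and treated CLBL-1 to treated 17-71 with no overlap between neighbours. SORD ran from treated CLBL-1 up to control 17-71, but the neighbours control CLBL-1 and treated 17-71 overlapped.

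**Figure D3:**
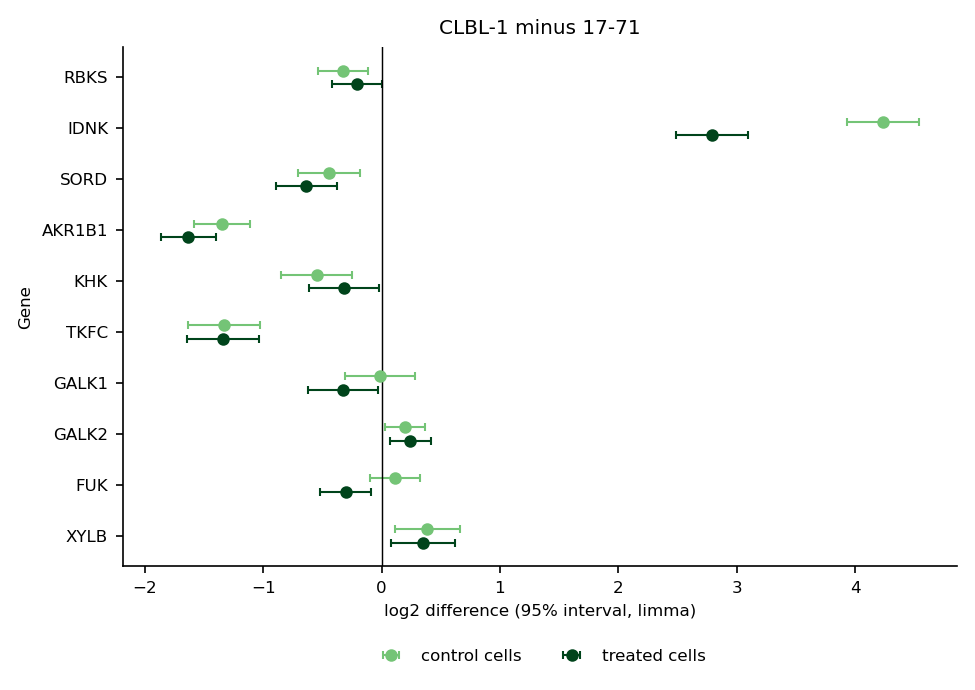
CLBL-1 minus 17-71 log2 difference (horizontal axis) of each gene in control cells and in treated cells. Points are limma estimates from the fit of all 10 arrays and bars are 95% intervals. IDNK stands at 4.24 in control and 2.79 in treated cells, and AKR1B1 and TKFC lie below -1.3 in both.

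Other enzymes of the same routes were taken from 6 lists with 58 genes, of which 48 were measured. In CLBL-1 30 of the 48 had a negative difference and in 17-71 33 did, with medians of -0.08 and -0.05, while over all 15947 genes 7792 and 7997 were negative. In limma 0 passed in either line at an adjusted p below 0.05, with 12 (2 higher and 10 lower) and 5 (all lower) at an unadjusted p below 0.05, where all genes gave 17% (8.67% lower) and 8.62% (5.24% lower). For the mean effect, where 2.54% of all genes passed (2.04% lower), 3 of 48 passed and all were lower. They were GMPPA, a regulatory partner of the enzyme that makes GDP-mannose (-0.59, SE 0.06, adjusted p = 0.00584), RPE, the epimerase between ribulose and xylulose phosphates (-0.45, SE 0.07, adjusted p = 0.0212), and FUCA1, the lysosomal fucosidase that frees fucose (-0.36, SE 0.06, adjusted p = 0.0267). GMPPA averaged 6.71 ± 0.06 (SD, n = 3) in control and 5.79 ± 0.15 (n = 2) in treated CLBL-1 cells, and 7.19 ± 0.01 (n = 2) and 6.93 ± 0.07 (n = 3) in 17-71. When 1 array was left out GMPPA passed in 10 of 10 fits, RPE in 3 (adjusted p up to 0.0788) and FUCA1 in 1 (adjusted p up to 0.1). The polyol and fructose list (8 measured), the galactose list (6) and the gluconate list (4) had 0 members past the threshold for the mean effect in limma, with 1, 2 and 2 at an unadjusted p below 0.05. Over all 15947 genes that unadjusted threshold took 1329 higher and 1610 lower.

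Between control cells of the 2 lines 31 of the 48 route genes passed, 10 higher and 21 lower in CLBL-1, against 41.9% of all genes, 21.7% higher and 20.2% lower. Of the 31 calls 24 held in all 10 fits without 1 array. The other 7 (GALM, GLA, PGD, GMPPB, NAGK, GNE and PGM3) were lost in at least 1 fit, with adjusted p up to 0.184 for GALM, and each loss came on leaving out a control array, except 1 loss of PGD without treated 17-71 replicate 2. These 7 were named after their values were seen. In the ribose and pentose list 4 of 9 passed. PGM2, a mutase that converts ribose phosphates into each other, averaged 8.20 in CLBL-1 and 2.81 in 17-71 (log2 difference 5.39, SE 0.14, adjusted p = 1.93e-08). The phosphorylases that release ribose phosphate from nucleosides stood the other way. UPP1, uridine phosphorylase, averaged 3.34 in CLBL-1 and 7.91 in 17-71 (-4.58, SE 0.12, adjusted p = 2.2e-08), and PNP, purine nucleoside phosphorylase, 5.35 and 8.77 (-3.42, SE 0.12, adjusted p = 1.35e-07). Thus 2 enzymes that supply ribose phosphate from nucleosides read higher in 17-71 and the mutase that acts on their product read higher in CLBL-1. PGM2 in 17-71 (2.81) and UPP1 in CLBL-1 (3.34) averaged below the array medians of 3.71 to 3.788. The sizes of these 2 differences therefore rest on low values without a detection call.

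In the fucose list 6 of 7 passed and all were lower in CLBL-1, led by FUCA1 (7.46 against 9.67, adjusted p = 1.59e-07), FUT8, the core fucosyltransferase (7.69 against 9.39, adjusted p = 5.2e-07), and GMDS, which starts the synthesis of GDP-fucose from GDP-mannose (6.22 against 7.92, adjusted p = 1.56e-06). FUK, the salvage kinase of the same sugar, read 4.11 and 3.99 and did not pass. In the polyol and fructose list 5 of 8 passed, with ALDOC, an aldolase, at 9.41 in CLBL-1 against 4.47 in 17-71 (adjusted p = 4.29e-08), AKR1A1, an aldehyde reductase, at 8.05 against 7.42 (adjusted p = 0.000587), and TPI1, triose phosphate isomerase, at 10.48 against 12.15 (adjusted p = 7.61e-07). All 6 measured galactose genes passed, 3 in each direction, among them GALT, the uridylyltransferase that follows GALK1 (6.26 against 3.73, adjusted p = 1.43e-06), GLB1, the lysosomal galactosidase (7.09 against 5.48, adjusted p = 2.78e-05), and UGP2, which makes UDP-glucose (7.12 against 8.02, adjusted p = 3.51e-05). The difference of GALK1 was -0.01, with a 95% interval from -0.31 to 0.29. In the gluconate list PGD, the dehydrogenase that uses the product of IDNK, was the 1 of 4 that passed (0.27, SE 0.08, adjusted p = 0.0338), and it held in 4 of 10 fits without 1 array. The mannose and amino sugar list had 9 of 14 past the threshold, led by GNPDA2 (-1.37), GNPDA1 (0.64), both glucosamine phosphate deaminases, and PMM2, a phosphomannomutase (0.57).

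**Figure D4:**
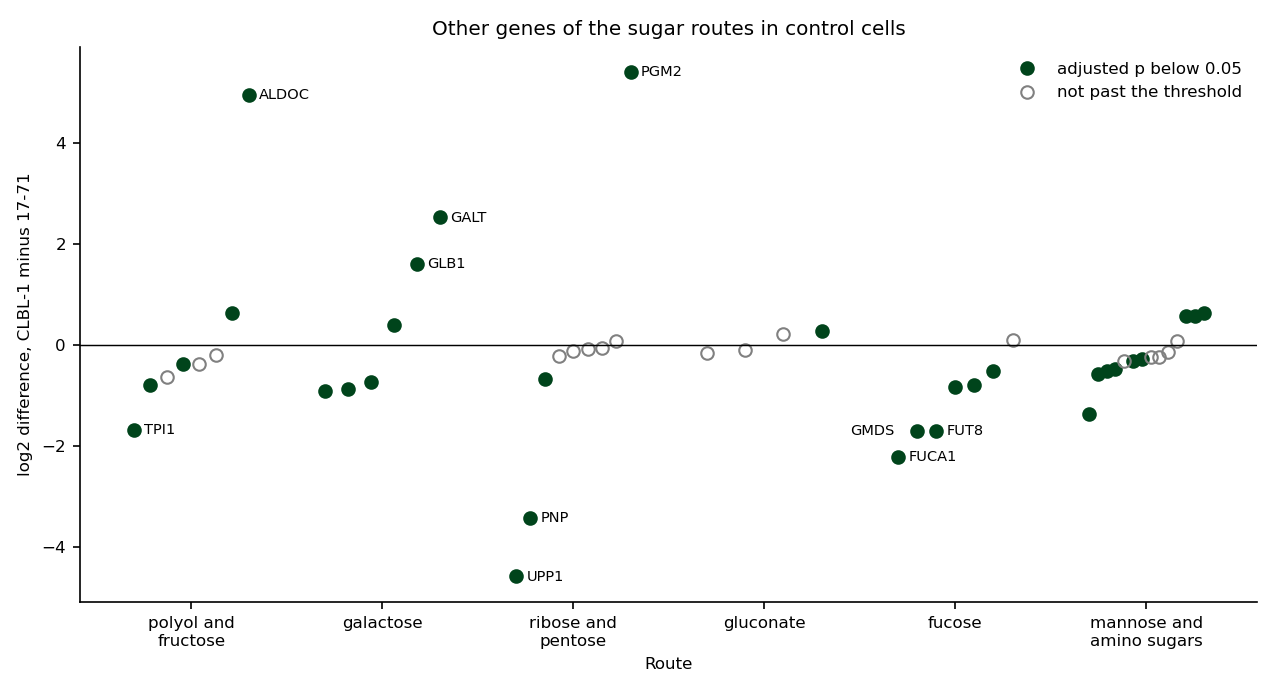
CLBL-1 minus 17-71 log2 difference in control cells (vertical axis) for the 48 measured genes of the 6 route lists. Filled points passed an adjusted p below 0.05 in limma and open points did not. PGM2 at 5.39 and ALDOC at 4.94 lie highest and UPP1 at -4.58 lowest, and 6 of the 7 fucose genes lie below 0.

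Genes whose mean over all arrays lay above the median of all probe sets were searched for likeness to RBKS, IDNK and SORD. Those with the most similar profiles over the 10 arrays, after the mean of each line was taken off, are given. They are a description, since every array of a line shares its treatment contrast. For RBKS they were CTDSPL2 (Pearson's r = 0.995), SUCLG2, a subunit of succinyl-CoA ligase (0.988), and TBC1D5 (0.985), with treated minus control log2 differences between 0.23 and 0.35 in CLBL-1 and between 0.20 and 0.26 in 17-71, well under that of RBKS. For IDNK they were CYP4V2 (0.99), KLHDC3 (0.987) and FGR, a SRC-family kinase (0.978), which were lower in treated CLBL-1 cells by 0.51 to 0.95 and differed by -0.08 to 0.02 in 17-71. For SORD they were MCOLN1, a lysosomal cation channel (0.979), PUS10, a pseudouridine synthase (0.969), and C17H2orf68 (0.968).

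Genes next to the members in RefSeq's list of dog genes (assembly UU_Cfam_GSD_1.0) were looked up after the values of the members had been seen. Of the 20 immediate neighbours 18 were measured. For the mean effect of treatment, where 2.54% of all genes passed, 1 of the 18 passed. It was CYB561A3, the neighbour of TKFC, with -2.27 in CLBL-1 and -0.61 in 17-71 (adjusted p = 0.000174 for the mean effect). DDB1, on the other side of TKFC, read -0.06 and 0.10. MRPL33 and BABAM2 on either side of RBKS read 0.22 and -0.16 in CLBL-1 and 0.16 and 0.11 in 17-71, beside 0.91 and 0.79 for RBKS. UBQLN1 and FRMD3 beside IDNK differed between control cells by -0.38 (adjusted p = 0.00422) and -0.23 (adjusted p = 0.404), both against the direction of IDNK. The next genes outward, GKAP1 (-0.52, adjusted p = 0.0112) and RASEF (-0.12, adjusted p = 0.487), also went against it. KIF27, the third gene on the side of UBQLN1, ran with IDNK (2.16, adjusted p = 2.4e-05) and read -0.54 in treated minus control CLBL-1 cells. SLC35B4 beside AKR1B1 (-1.59, adjusted p = 1.24e-05) and CYB561A3 beside TKFC (-1.13, adjusted p = 1.16e-05) ran the same way as their neighbours. In all 8 of the 18 passed between control cells, where 41.9% of all genes did. Whether probes of one gene also read transcripts of its neighbour was not tested.

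The arrays measure mixed RNA of whole cultures, so that fewer expressing cells and less RNA per cell cannot be told apart, and RMA sets the distribution of each array alike.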

How the data were processed

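Total RNA of each sample was hybridised to an Affymetrix CanGene 1.0 ST array. The authors summarised the scans by robust multi-array averaging (RMA) and deposited the resulting log2 values for each probe set. Their processing notes list limma and Affymetrix Expression Console besides RMA. Whether values were filtered, and whether the lines were normalised together, is not stated in the sources used here. Array medians were 3.71 to 3.788. The precision is limited by the small number of arrays.

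In the platform annotation 16545 of 32391 probe sets carried 1 gene symbol, 370 several and 15476 none. Where a gene had several, the probe set with the highest mean represented it, which gave 15947 genes. The RefSeq table held all 10 members.

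Differences were tested two-sided with limma 3.58.1 under R 4.3.3, using lmFit and eBayes, on a pipeline tested on simulated data. Benjamini-Hochberg adjustment ran over all probe sets. Each line was fitted alone for its own effect (residual df 3). The 4 groups were fitted jointly for the mean effect, the difference of effects and the differences between the lines (residual df 6). Intervals are 95% intervals of these fits. The members and lists were chosen with earlier results of these data known. Besides members and markers, the genes named were PRMT5, MYC, up to 3 route genes per list and comparison with the smallest p past the threshold, the 3 genes most like RBKS, IDNK and SORD, and neighbours chosen after their values were seen. Alternatives were an intensity trend with robust variances, 2 further normalisations, a filter on low values, 1 probe set per gene, unadjusted p, the replicate number as a block, the joint fit, treated in place of control cells, and leaving out each array.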

Additional observations from a re-analysis of the deposited data

How the results depend on the processing

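Of the 10 genes, 1 passed in CLBL-1, 0 in 17-71, 4 for the mean effect, 0 for the difference of effects and 7 between control cells. RBKS, IDNK and SORD were chosen on the treated minus control contrast. Nothing is therefore read from their calls for an effect of treatment under any setting below. The number of calls rose with that over all features: in CLBL-1 43 probe sets passed, 1310 with an intensity trend and robust variances, 607 in the joint fit, 1001 among probe sets above the median level and 608 with 1 probe set per gene. Among the 10 genes in CLBL-1 the number was 3 with an intensity trend and robust variances and 3 in the joint fit (RBKS, IDNK and SORD both times), 4 among probe sets above the median level, where IDNK was not tested and GALK1 (adjusted p = 0.0348) and FUK (adjusted p = 0.0373) passed, 4 with 1 probe set per gene, where GALK1 also passed (adjusted p = 0.0447), 6 at an unadjusted p below 0.05 and 0 whenever 1 array was left out. In 17-71 it was 1 with the trend and 1 in the joint fit (RBKS), where 35 and 15 of all probe sets passed. Unadjusted it was 4 in 17-71, where 8.62% of all genes passed, against 17% in CLBL-1. The mean effect gave 7 unadjusted and 1 to 3 without 1 array. The difference of effects gave 1 with the trend and 1 with 1 probe set per gene (IDNK), where 288 and 102 of all probe sets passed, and 2 unadjusted. Over all 15947 genes the unadjusted threshold took 1329 higher and 1610 lower for the mean effect. For the difference of effects it took 1166 positive and 949 negative. Quantile normalisation ended the call of TKFC for the mean effect (adjusted p = 0.0588). With treated in place of control cells FUK went from 0.11, which did not pass, to -0.30, which did. Cyclic loess, quantile normalisation and the replicate block each moved 4 uncalled values across 0. Between control cells the call of XYLB ended with cyclic loess (adjusted p = 0.0729) and with the trend (adjusted p = 0.0599), and GALK2 passed among probe sets above the median level (adjusted p = 0.0223).

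The labels give the groups the same replicate numbers and do not say whether same-numbered arrays were paired. Their deviations from the group means had correlations of -0.026 to 0.008. With only 2 arrays in the smaller group of each line, the deviations there mirror each other. The correlations therefore cannot show whether the arrays were paired. With the replicate block 0 members passed in CLBL-1, 0 for the mean effect and 3 between control cells (IDNK, AKR1B1 and TKFC). Of all 32391 probe sets, 0, 0 and 5882 passed there, so the loss of calls for treatment was not particular to the members. No member had more than 1 probe set, so the alternative of a second probe set was not run. The route genes called for the mean effect numbered 1 to 4 when 1 array was left out, a check chosen after seeing the data.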
